A study of Mus musculus with 28 samples.

Results

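The hMe-Seal libraries of 2 genotypes were compared to describe 5-hydroxymethylcytosine (5hmC) after combined loss of Tet1 and Tet2: replicates 1 and 2 of the double knockout (DKO) and replicates 1 and 2 of the wild type (WT). These are 4 of the 28 samples of the series and of the 11 that have a peak list, and were chosen by assay and genotype from the sample titles. All came from bone marrow cells labelled LK, of C57BL/6 mice that were 6 to 10 weeks old, an age the series calls young. The labels do not spell out LK, a short name the field commonly uses for lineage-negative, Kit-positive progenitors. DKO is read here from the series title as loss of both Tet1 and Tet2, and WT carries neither. The knockout alleles, the number of mice per library and any pooling of mice are not given in the labels. Each p-value below therefore compares libraries, and the spread between them may be technical. The labelled cell type could not be checked, since peaks of genomic DNA show no expression markers. The analysis covered chromosomes 1 to 19, in the build mm9.

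Ten-eleven translocation (TET) enzymes are dioxygenases that oxidise the methyl group of 5-methylcytosine (5mC) to 5hmC and on to further products, a route to active or passive removal of methylation. Tet2 and Tet3 are well expressed in blood progenitors, and Tet2 is among the genes most often mutated in human myeloid malignancy. The labels name no change to Tet3. In hMe-Seal a sugar carrying an azide is placed on 5hmC by a glucosyltransferase, biotin is attached to it by click chemistry, and the captured fragments are sequenced. A peak marks where captured fragments passed the peak caller's threshold and is not a share of modified cytosines.

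The DKO libraries still had 5hmC peaks across all 19 chromosomes examined. WT replicate 1 had 128026 peaks and WT replicate 2 had 134816, and the DKO libraries had 129556 and 143346. The groups overlap, because DKO replicate 1 lies between the WT libraries. The mean was 3.83% higher in DKO (131421 ± 4800 in WT and 136451 ± 9750 in DKO, SD, n = 2 each, exact two-sided permutation p = 0.667), and without DKO replicate 2 the difference was -1.42%. The smallest p that this design of 2 and 2 libraries allows is 0.333.

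The peaks covered 111.4 and 108.8 Mb in WT and 109.7 and 105.5 Mb in DKO. DKO replicate 1 again lies between the WT libraries, and DKO replicate 2 had the lowest value of the 4. The difference of means was -2.28% (110.1 ± 1.79 Mb in WT and 107.6 ± 2.97 Mb in DKO, SD, n = 2 each, exact permutation p = 0.667). It was -0.374% without DKO replicate 2 and -4.19% without DKO replicate 1. With only peaks of a score of at least 100 its sign turned, to 1.78% more in DKO. On single chromosomes, both DKO libraries covered less than both WT libraries on 6 of 19 (31.6%), namely chromosomes 1, 3, 10, 14, 17 and 19, and more on none (0 of 19). Chromosome 10 had the lowest relative value, with 6.94 and 6.77 Mb in WT against 6.60 and 6.43 Mb in DKO (-4.96%), followed by chromosome 17 with 6.22 and 5.97 Mb against 5.95 and 5.64 Mb (-4.92%).

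Peak width separated DKO replicate 2 from the other libraries, and not the genotypes. Median widths were 729 and 682 bp in WT and 706 and 624 bp in DKO, so DKO replicate 1 lies between the WT libraries. The means were 705.5 ± 33.2 bp in WT and 665 ± 58.0 bp in DKO (SD, n = 2 each, -5.74%, exact permutation p = 0.667, adjusted 0.667 over the 3 quantities peak number, covered length and median width). Without DKO replicate 2 the difference was 0.0709%. Peaks wider than 2000 bp made up 3.08% and 2.36% of the WT lists and 3.0% and 1.63% of the DKO lists, and peaks under 400 bp 3.15% and 5.02% against 3.42% and 7.71%. The order of the libraries did not depend on the strength of the peaks. When each list was cut into deciles of the authors' score, WT replicate 1 was widest and DKO replicate 2 narrowest in all 10 deciles, and the difference of the DKO mean from the WT mean was between -4.63% (the seventh decile) and -6.67% (the eighth). In the highest-scoring decile the medians were 1558 and 1450 bp in WT and 1534 and 1301.5 bp in DKO.

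**Figure D1:**
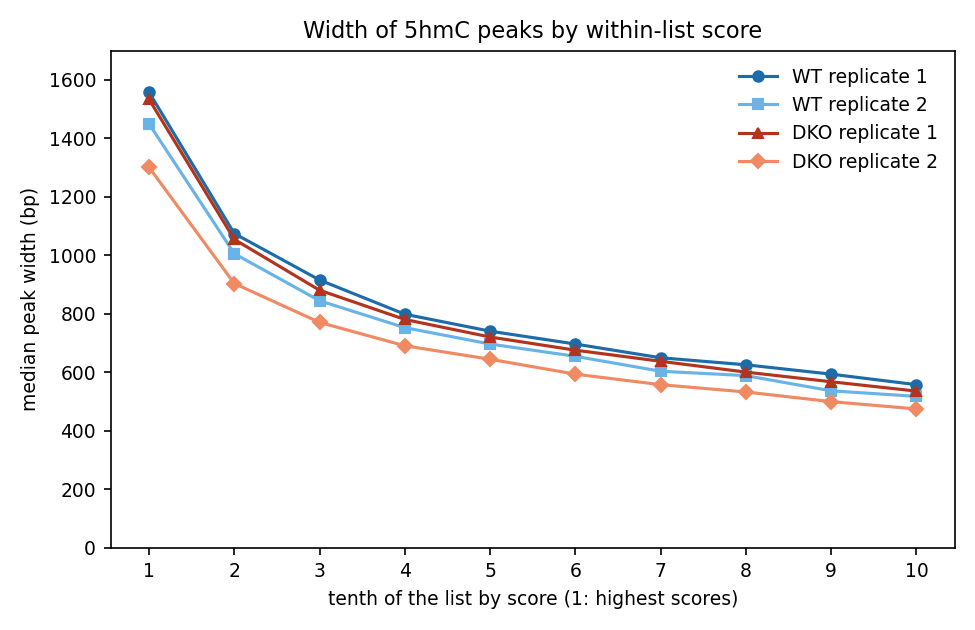
Median width in bp (y axis) of the 5hmC peaks in each decile of a list, ordered by the authors' score within that list (x axis, 1 is the highest), with 1 line per library. DKO replicate 1 runs between the WT libraries and DKO replicate 2 below all of them, from 1301.5 bp in the first decile to 475 bp in the last.

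Merging the peaks of the 4 lists wherever they overlapped by at least 1 bp gave 183215 regions. Of these, 73960 (40.4%) had a peak in all 4 libraries, 27414 (15%) in 3, 31584 (17.2%) in 2 and 50257 (27.4%) in 1. Regions shared by all 4 were the widest, with a median of 1071 bp, against 528 bp for regions of 1 library. Libraries of the same genotype shared more regions than libraries of different genotypes. The share of a pair's regions that both of its libraries held was 62.7% for the WT pair, 64.4% for the DKO pair and 58.4% to 60.9% for the 4 pairs of 1 WT and 1 DKO library.

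A region was called lost where both WT libraries and neither DKO library had a peak, and gained for the opposite. There were 6884 lost regions, 3.76% of all merged regions, and 8749 gained regions, 4.78%. The excess of gained over lost regions depended on the length of the lists. The ratio of gained to lost was 1.27 with all peaks and 1.02 with the 128026 highest-scoring peaks of each list (7618 gained and 7452 lost), while a minimum score of 100 gave 1.72 (5604 and 3250). Gained regions outnumbered lost ones on 18 of 19 chromosomes with all peaks. The exception was chromosome 17, with 399 lost and 377 gained regions, which also held the second lowest relative covered length in DKO. Chromosome 7 had the highest ratio, with 515 gained and 320 lost.

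Lost and gained regions were weak peaks in the libraries that had them, as were other regions found in 2 libraries. Within each list, peaks were ranked by the authors' score, expressed as a percentile with 100 for the highest score. Lost regions had a median percentile of 26.2 in WT replicate 1 and 28.5 in WT replicate 2, and gained regions 25.3 in DKO replicate 1 and 30.7 in DKO replicate 2. Regions with a peak in all 4 libraries had medians from 67.9 to 70.7. With the percentiles of the libraries pooled, lost and gained regions had medians of 27.3 and 28.0, and the 4 patterns of 1 WT and 1 DKO library had medians of 21.6 to 23.0, so a low rank was not particular to loss or gain. Of the 12802 peaks in the highest decile of WT replicate 1, 0 lay in a lost region, and of the 13481 in that of WT replicate 2, 1 did. In the DKO lists 2 of 12955 and 1 of 14334 peaks of the highest decile lay in a gained region. In the lowest decile the shares were 10.6% and 9.15% of peaks for loss and 14.1% and 9.54% for gain. Lost and gained regions thus took almost no peaks from the top of the lists and most of theirs from the lower deciles.

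They were also narrow, again as were other regions found in 2 libraries. The median width was 690 bp for lost and 636 bp for gained regions. For the 4 patterns of 1 WT and 1 DKO library the medians were 618 to 692 bp. A merged region spans all of its peaks, which by itself favours width in regions of more libraries. Among regions of at least 2000 bp, 7 were lost and 6 gained of the 9272 under 5000 bp, and 0 were lost or gained among the 427 of 5000 bp or more, all of which had peaks in all 4 libraries. Among regions of 500 to under 1000 bp, 5.02% were lost and 6.42% gained. Some lost and gained regions stood near a peak of the other genotype, a distance that was not taken for other regions. The nearest DKO peak was at a median of 1365.5 bp from a lost region and within 500 bp for 26.1% of them, and the nearest WT peak was at a median of 1519 bp from a gained region and within 500 bp for 26.7%. More than 10 kb separated 8.56% of lost and 12.6% of gained regions from any peak of the other genotype.

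The 5mC lists, which had no part in choosing these regions, separated lost from gained ones. The 5 deposited lists (2 of WT, 2 of DKO and 1 of Tet2 knockout LK cells) were made by immunoprecipitation of methylated DNA. Between 25.6% and 29.6% of the lost regions overlapped a 5mC peak, depending on the list, and between 6.88% and 8.31% of the gained regions did. For all merged regions the range was 19.4% to 22.7%. The WT lists gave 25.6% and 28.0% for lost regions and the DKO lists 29.6% and 25.7%, so the ranges of the 2 genotypes' 5mC lists overlapped. For gained regions the WT lists gave 7.01% and 7.44% and the DKO lists 8.31% and 6.88%.

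The gap was as wide among regions of like width. Lost regions had a median width of 690 bp and gained regions of 636 bp. Among regions of 500 to under 1000 bp alone, 25.1% to 28.7% of 5250 lost regions and 6.85% to 8.18% of 6715 gained regions had a 5mC peak, against 18.6% to 22.3% of the 32441 regions of that width present in all 4 libraries. With equal list lengths, 21.6% of lost and 4.86% of gained regions lay on a 5mC peak of both WT lists, and with all peaks 21.6% and 5.14%. With a minimum score of 100 these shares were 32.8% and 6.92%.

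The gap extended to regions called in a single library. Regions found only in WT replicate 1 (10753) or only in WT replicate 2 (13930) had a 5mC peak in 22.3% and 16.7% of cases, as the median over the 5 lists. For regions found only in DKO replicate 1 (9651) or only in DKO replicate 2 (15923) the medians were 9.19% and 8.40%. All 3 patterns without a WT peak stood below all 12 patterns with at least 1. Among regions with a peak in 3 libraries, those missing from 1 DKO library were at 26.1% and 27.1% and those missing from 1 WT library at 11.6% and 13.9%.

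**Figure D2:**
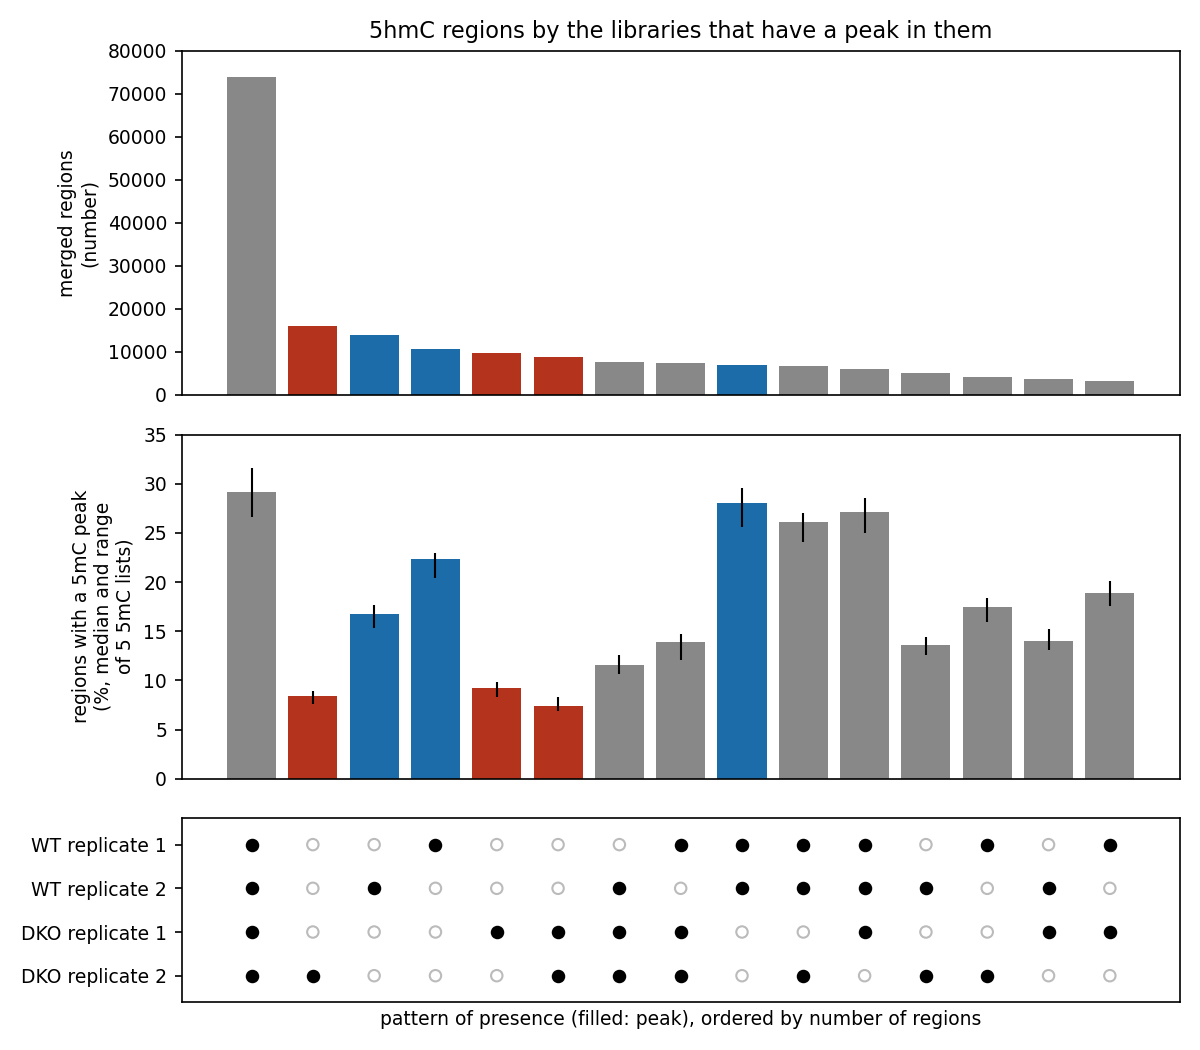
Number of merged 5hmC regions (top) and percentage of them with a 5mC peak (middle, bar for the median and line for the range over the 5 5mC lists) for each of the 15 patterns of presence in the 4 libraries (bottom, filled circles for a peak). Blue bars are patterns with WT peaks only, red bars with DKO peaks only and grey bars with both, and the red bars lie between 7.44% and 9.19%, below all others.

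Read the other way, the balance of loss and gain depended on 5mC. Of 29444 regions on a 5mC peak of both WT lists, 1488 (5.05%) were lost and 450 (1.53%) gained, or 3.31 lost for each gained region. Of 126443 regions without a peak in any 5mC list, 4191 (3.31%) were lost and 7612 (6.02%) gained, or 1.82 gained for each lost region. The directions were opposite also at 500 to under 1000 bp, with 3.19 lost per gained region on 5mC and 1.80 gained per lost region off it. On 5mC, 82.3% and 81.3% of regions had a peak in the WT libraries and 71.7% and 73.7% in the DKO libraries. Off 5mC the shares were 58.2% and 62.1% in WT and 63.0% and 69.2% in DKO. The groups did not overlap in either class.

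Over whole lists, 18.8% and 17.5% of WT peaks and 15.8% and 14.5% of DKO peaks lay on a 5mC peak of both WT lists. Both DKO libraries were below both WT libraries, with means of 18.2% ± 0.937 in WT and 15.1% ± 0.935 in DKO (SD, n = 2 each, difference -3.03 points, exact two-sided permutation p = 0.333, the smallest this design allows). With 5mC peaks of both DKO lists as the reference, the shares were 20% and 18.6% in WT and 16.9% and 15.5% in DKO. Restricted to 5hmC peaks of 500 to under 1000 bp, they were 16.2% and 15.8% in WT and 13.8% and 14.0% in DKO, on the WT reference. The gap was widest among the strongest peaks. In the highest-scoring decile, 40.2% and 38.1% of WT peaks and 32.6% and 29.5% of DKO peaks lay on 5mC, and in the lowest decile 11.8% and 10.6% against 10.4% and 9.80%. Both DKO libraries were below both WT libraries in 9 of 10 deciles. Fold enrichment and depth of the libraries are unknown, and their part in this difference was not tested.

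**Figure D3:**
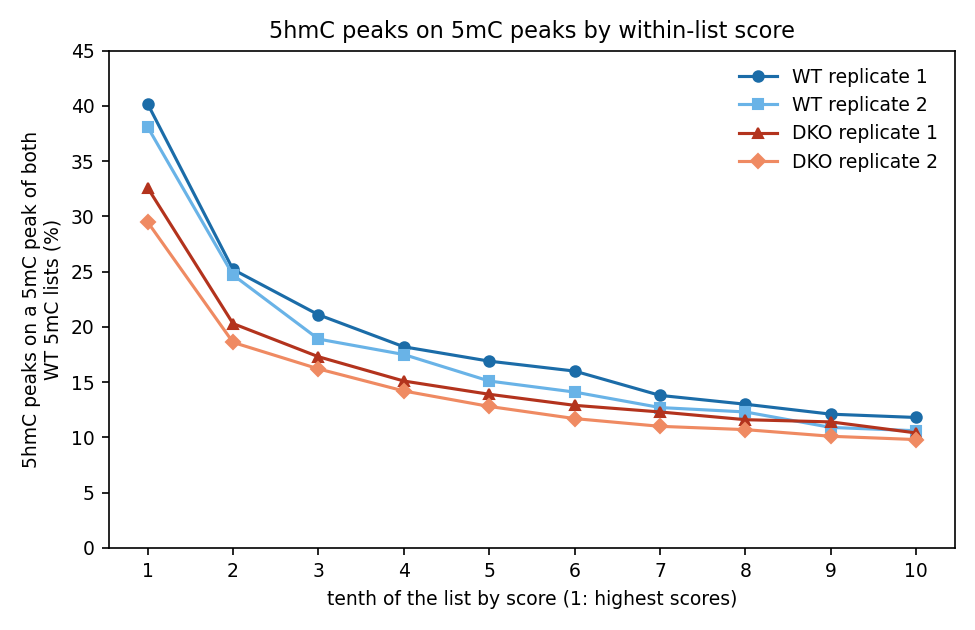
Percentage of 5hmC peaks that overlap a 5mC peak of both WT 5mC lists (y axis) in each decile of a 5hmC list by the authors' score (x axis, 1 is the highest), with 1 line per library. The DKO lines lie below the WT lines in 9 deciles, and the distance is widest in the first, at 32.6% and 29.5% against 40.2% and 38.1%.

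Regions with a peak in all 4 libraries moved in rank in the same direction. Among the 43233 of them without any 5mC peak, the median percentile was 60.8 and 62.9 in the WT lists and 64.6 and 67.5 in the DKO lists. Among the 16654 on 5mC peaks of both WT lists, it was 80.7 and 81.1 in WT and 75.9 and 77.0 in DKO. Both WT percentiles were above both DKO percentiles in 32.2% of regions on 5mC and in 15.5% of regions off it, beside 20.6% of all 73960. The opposite order was found in 14.8% on 5mC and 28.8% off it, beside 24.3% of all. A percentile depends on what else is in the list, so these values show the relative place of peaks and no change in amount. The percentiles of 2 replicates differed by a median of 9.60 points in WT and 8.91 points in DKO, and those of a WT and a DKO library by 10.9 to 11.4 points.

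The covered length within the regions present in all 4 libraries was tested by limma on the log2 scale. The median region had 873 and 833 bp covered in the WT libraries and 853 and 782 bp in the DKO libraries. The median difference was -0.04 on the log2 scale, and 42447 regions (57.4%) had less and 31512 more covered length in DKO. The majority turned without DKO replicate 2 (35182 with less and 38777 with more). Centring each library on its own median gave 34048 and 39912, a balance that the centring itself sets. No region passed (0 of 73960, 0%, smallest limma adjusted p = 0.331), while an unadjusted p under 0.05 was reached by 5248 (7.1%), with 3418 (4.62%) narrower and 1830 (2.47%) wider in DKO. Of regions on 5mC of both WT lists, 64.9% were narrower, and of those without 5mC, 53.9%.

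Some single regions differed by much more than their replicates, though none passed the adjusted test. Those named here and in the next paragraph had the smallest unadjusted limma p of each direction. That choice itself favours close replicates and a large difference. At chr5:75441188-75443283, 1858 and 2059 bp were covered in WT and 496 and 518 bp in DKO (log2 difference -1.95, SE 0.155, limma adjusted p = 0.331). The WT libraries had a broad peak there and the DKO libraries a short one, and no 5mC list had a peak. At chr8:24170425-24172686 the lengths were 1713 and 1719 bp in WT and 488 and 506 bp in DKO, with peaks in 3 of the 5 5mC lists. At chr2:75651886-75654132 they were 2194 and 2095 bp against 676 and 586 bp, and WT had 2 peaks in each library where DKO had 1. The fourth, chr1:152946855-152948860, had 1949 and 1693 bp in WT and 574 and 538 bp in DKO.

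The regions with the opposite difference were alike in shape, with 1 short peak in each WT library and 2 peaks in each DKO library. At chr11:76399600-76401567, 570 and 572 bp were covered in WT and 1941 and 1933 bp in DKO (log2 difference 1.76, SE 0.145, limma adjusted p = 0.331). Its percentile was 65.4 and 32.3 in the WT lists and 95.1 and 95.7 in the DKO lists. At chr5:106309899-106311757 the lengths were 506 and 511 bp in WT and 1795 and 1726 bp in DKO. At chr7:106051776-106054036 they were 502 and 551 bp against 1814 and 2021 bp, and all 5 5mC lists had a peak there. At chr16:87584654-87586673 they were 540 and 482 bp against 1621 and 1651 bp. In the region of chromosome 7 the percentiles of the groups overlapped, with 21.9 and 55.3 in WT and 25.6 and 81.9 in DKO. In the others of this direction named here, both DKO percentiles were above both WT percentiles. Over all regions present in the 4 libraries, 989 (1.34%) had 1 peak in both WT libraries and 2 or more in both DKO libraries, and 626 (0.846%) the reverse.

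The widest lost regions were of moderate rank. On chr8:109592783-109594956 (2174 bp), WT replicate 1 had 2174 bp covered at percentile 81.5 and WT replicate 2 had 1593 bp at percentile 65.2. All 5 5mC lists had a peak there, and the nearest DKO peak was 1222 bp away. On chr2:165137884-165139968 (2085 bp) the WT libraries had 2085 and 2020 bp covered, at percentiles 69.5 and 79.4, again with peaks in all 5 5mC lists. Both Tet2 knockout 5hmC libraries had a peak in this region, which the DKO libraries lacked. The other widest lost regions, chr9:71326092-71328201 and chr3:152192195-152194266, had no 5mC peak, and the second of them lay 15264 bp from any DKO peak. By rank the strongest lost region was chr10:110436055-110437136, with percentiles 84.1 and 80.0, followed by chr5:121894345-121896294 with 74.8 and 88.7, chr19:46147372-46148941 with 81.2 and 81.9, and chr9:96535542-96536607 with 81.6 and 75.3. A DKO peak stood 286 bp from the region of chromosome 5 and 318 bp from that of chromosome 19, and neither was lost when peaks at most 500 bp apart were joined.

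The strongest gained region was chr13:52195191-52196197 (1007 bp), at percentile 87.0 in DKO replicate 1 and 92.9 in DKO replicate 2, with no 5mC peak and the nearest WT peak 1856 bp away. On chr18:4335921-4336860 (940 bp) the percentiles were 91.0 and 87.9, and no WT peak lay within 11979 bp. Both Tet2 knockout libraries had a peak there too. The next in rank were chr4:8838869-8840107, with 84.6 and 88.2, and chr7:132698628-132699806, with 89.0 and 81.1. A WT peak stood 128 bp from the last, which was not gained when peaks at most 500 bp apart were joined. None of these 4 regions had a peak in any 5mC list. The widest gained regions were weaker, such as chr2:101621616-101624065 (2450 bp), with 941 bp covered at percentile 10.6 in DKO replicate 1 and 2021 bp at percentile 73.3 in DKO replicate 2. The others were chr1:74009075-74011305, chr19:7260336-7262558 and chr15:82856540-82858682, of 2231, 2223 and 2143 bp. In the last 2, all 5 5mC lists had a peak and a WT peak stood at 187 and 132 bp, and neither was gained when peaks at most 500 bp apart were joined.

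For a view over larger stretches, the genome was divided into bins of 100 kb and the percentage of each bin covered by 5hmC peaks was compared in the 12613 bins that had a peak in at least 2 of the 4 libraries. Coverage was lower in DKO in 6397 bins and higher in 6216. The mean difference was -0.205 percentage points. The differences between the means of 2 libraries had an SD over bins of 1.66 points. Single libraries of a genotype differed with an SD of 1.68 points in WT and 1.73 points in DKO. This corresponds to 1.21 points for a difference of 2-library means, which is below the SD between the groups. These are spreads over bins and not over libraries, and the gap between them was not tested. Differences above 5 points were found in few of the 12613 bins and were mostly reductions, with 180 bins lower and 31 higher. Of those above 10 points, 4 were lower and 0 higher. The same counts between replicates were not taken, so no genotype effect is read from these numbers. Both DKO libraries were below both WT libraries in 2782 bins (22.1%) and above both in 2691 (21.3%).

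The direction followed the density of the bin. Bins were placed in 5 classes of equal size by their mean 5hmC coverage over the 4 libraries. In the sparsest class, WT had 0.538% and 0.562% covered and DKO 0.605% and 0.741%, a mean of 22.3% more, and both DKO libraries were above both WT libraries in 28.1% of bins and below in 14.8%. In the densest class, WT had 25.6% and 24.9% covered and DKO 25.0% and 23.3%, a mean of 4.26% less, and both DKO libraries were below both WT libraries in 33.9% of bins and above in 13%. DKO replicate 2 lay farther from WT, at 34.6% above the WT mean in the sparsest class and -7.63% in the densest, while DKO replicate 1 was at 9.91% and -0.878%, the latter within the WT range of -1.49% to 1.49%. With an equal number of peaks per list the sparsest class differed by 15.1% and the densest by -5.71%. The ratio of gained to lost regions went from 2.19 in the sparsest class (560 and 256) to 1.02 in the densest (2835 and 2783). Gained regions were 9.34% of the regions in the sparsest class and 3.54% in the densest, and lost regions 4.27% and 3.48%. The lost share was thus no higher in the densest class, and the ratio moved with the gained share.

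Bins classed by their mean 5mC coverage showed the same order. The class with least 5mC had 2.15% and 2.24% 5hmC coverage in WT and 2.26% and 2.41% in DKO. The class with most 5mC had 18.6% and 17.9% in WT and 17.8% and 16.6% in DKO (-5.83%), so both DKO libraries were narrowly below both WT libraries. With an equal number of peaks per list the groups overlapped in both classes. The class with least 5mC then had 2.15% and 2.11% in WT and 2.23% and 2.14% in DKO (2.55%). The class with most 5mC had 18.6% and 17.4% in WT and 17.6% and 15.7% in DKO (-7.4%). With all peaks, lost regions (2319, 3.83% of its regions) outnumbered gained ones (2198, 3.63%) in the class with most 5mC, as in no other of the 5. In the class with least 5mC, 3.9% of regions were lost and 7.1% gained. The gained share thus differed between these classes, and the lost share hardly did. Since 5hmC coverage itself went from 2.15% to 18.6% in WT replicate 1 over the 5mC classes, the orderings by 5hmC and by 5mC are not independent.

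**Figure D4:**
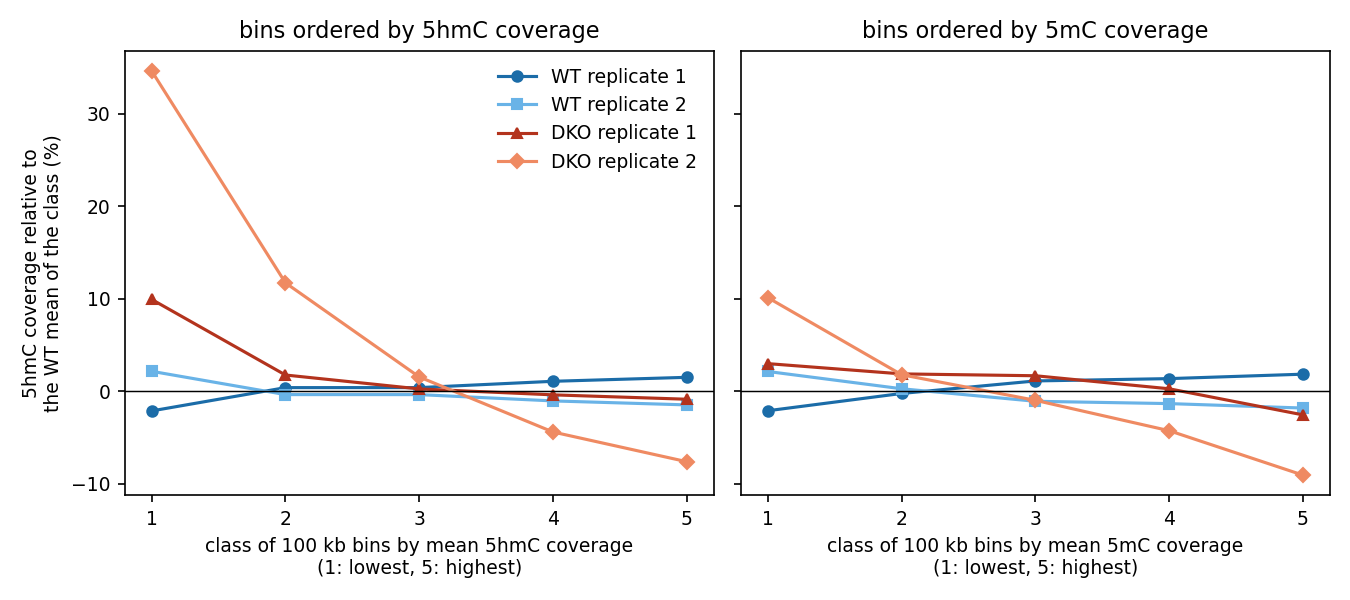
5hmC coverage of each library relative to the mean of the WT libraries in percent (y axis), for 5 equal classes of 100 kb bins ordered by mean 5hmC coverage (left) or mean 5mC coverage (right), with 1 line per library. The lines of the DKO libraries go from above to below the WT mean from class 1 to class 5, and that of DKO replicate 2 goes farther, from 34.6% to -7.63% in the left panel.

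No bin passed in limma, fitted on the arcsine of the square root of the covered fraction (0 of 12613, 0%, smallest adjusted p = 0.295). An unadjusted p under 0.05 was found for 1454 bins (11.5%), 707 (5.61%) lower and 747 (5.92%) higher in DKO. When only the 6360 bins with a mean of at least 5% covered were tested, 113 passed (1.78%), 79 (1.24%) lower and 34 (0.535%) higher. The mean was over the 4 libraries, so a bin could reach 5% through 1 genotype alone. The median over the 79 was 21.8% covered in WT and 14.9% in DKO, and over the 34 it was 6.59% and 12.2%. An unadjusted p under 0.05 was found for 959 of these bins (15.1%), 644 (10.1%) lower and 315 (4.95%) higher. In that fit limma found no more variation in spread between bins than its trend gives and used 1 common spread for bins of equal coverage. With the 2 Tet2 knockout 5hmC libraries added to the estimate of the spread and to the mean of the 5% filter, 0 of 6320 bins passed (503 with an unadjusted p under 0.05, smallest limma adjusted p = 0.359). The 113 calls therefore hold only under the spread of these 4 libraries, and the count went to 18 without DKO replicate 2, to 22 without WT replicate 2 and to 34 with equal list lengths. The direction was not stable either, with 38 lower and 37 higher without WT replicate 1, and 0 lower and 6 higher with a minimum score of 100.

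The bin that stood out in coverage was chr15:96400001-96500000. It had 34.1% and 32.5% covered in WT and 20.8% and 22.3% in DKO (arcsine difference -0.132, SE 0.0175, limma adjusted p = 0.295, and 9.33e-05 among bins with at least 5% covered). The values of the Tet2 knockout libraries, compared with the same WT libraries, were 21.3% and 22.4%. It held 3 lost and 0 gained regions among 34, and its 5mC coverage was 13.0% to 13.9% in all 5 lists, DKO and WT alike. In chr15:53000001-53100000, WT had 19% and 17.9% covered and DKO 9.8% and 11.2%, with 5 lost regions among 22 and 0 gained (limma adjusted p = 0.295, and 0.000532 among bins with at least 5% covered). In chr4:116900001-117000000, WT had 22.8% and 22.1% covered and DKO 14.7% and 14.3%, with 5 lost regions among 31 and 0 gained. With a minimum score of 100 the differences were smaller, at -0.055 for the first of these bins, -0.0676 for the second and -0.0766 for the last, all on the arcsine scale. The fourth, chr3:86300001-86400000, was sparse, with 2.16% and 1.58% covered in WT and no peak in either DKO library. It entered the test only through its WT peaks, so its p supports nothing and its values are a description.

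The 4 bins with the smallest p and more coverage in DKO were sparse and had no WT peak. They entered the test only through their DKO peaks, so their p supports nothing and their values are a description. In chr13:29300001-29400000, DKO had 2.16% and 2.22% covered, in chr2:178800001-178900000 it had 1.85% and 2.33%, in chr1:190300001-190400000 1.78% and 2.23%, and in chr10:99400001-99500000 1.5% and 1.58%. Each held 2 gained regions. The Tet2 knockout libraries had peaks in all 4 of these bins, covering 0.544% to 1.47%, again against the same WT libraries. Among bins with at least 5% covered, those with the smallest adjusted p and more coverage in DKO were chr8:123800001-123900000 (3.61% and 5.35% in WT, 9.60% and 10.5% in DKO, limma adjusted p = 0.00153), chr16:34900001-35000000 (13.9% and 11.4% against 20.5% and 20.2%, limma adjusted p = 0.00176), chr1:129500001-129600000 (2.81% and 2.97% against 6.95% and 8.15%, limma adjusted p = 0.00207) and chr11:107800001-107900000 (6.54% and 7.55% against 13.2% and 12.9%, limma adjusted p = 0.00207). These 4 were chosen after their values had been seen. Those of chromosomes 8 and 1 reached a mean of 5% only through their DKO coverage. The p of these bins supports nothing, and their values are a description.

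**Figure D5:**
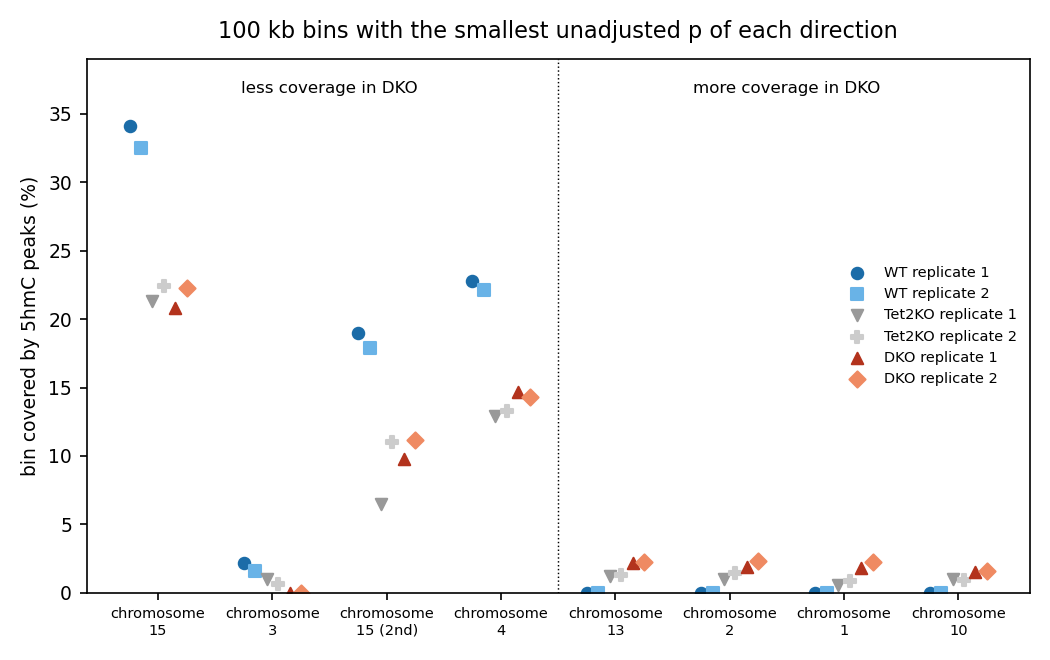
Percentage of a 100 kb bin covered by 5hmC peaks (y axis) in each library, for the 4 bins of each direction with the smallest unadjusted limma p (x axis, by chromosome), with the Tet2 knockout libraries in grey. In the bin of chromosome 15 at the left, WT libraries lie at 34.1% and 32.5% and all knockout libraries between 20.8% and 22.4%, and the 4 bins at the right have no WT peak and entered the test through DKO peaks only.

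Few bins held many lost or gained regions. At least 1 lost region was found in 4727 of 13480 bins that held any region, at least 3 in 453 and at least 5 in 31. For gained regions the numbers were 5852, 616 and 41, and 2506 bins held both kinds. The highest number of lost regions in a bin was 7, in chr5:122900001-123000000 and chr10:43300001-43400000. The first of these had 22.8% and 22.2% covered in WT and 18.9% and 16.1% in DKO (limma adjusted p = 0.317, and 0.116 among bins with at least 5% covered). The second of these had 22.4% covered in each WT library and 15.7% and 13.7% in DKO, while the Tet2 knockout libraries had 20% and 21.5% (limma adjusted p = 0.295, and 0.00229 among bins with at least 5% covered). Its arcsine difference went from -0.1 to -0.0286 with a minimum score of 100 (limma adjusted p = 0.758). Of the 6 bins with 6 lost regions, the first by position, chr2:6200001-6300000, had 1 gained region (limma adjusted p = 0.524, and 0.303 among bins with at least 5% covered). The highest number of gained regions was 7, in chr1:162200001-162300000, chr6:87600001-87700000 and chr13:51900001-52000000. Coverage there was 8.32% and 10.4% in WT against 12.3% and 12.7% in DKO for the first, 15.9% and 10.9% against 17.5% and 18.5% for the second, and 20.2% and 17.9% against 21.7% and 23.2% for the last. None of the 3 passed (limma adjusted p = 0.401, 0.446 and 0.46), and with a minimum score of 100 the first turned to less coverage in DKO (arcsine difference -0.0174). The bins with the most lost or gained regions were picked by peaks of these same 4 libraries. That choice favours less or more coverage in DKO, so their p supports nothing and their values are a description.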

How the data were processed

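The authors deposited 1 peak list per library, without pooling of replicates, with a chromosome, a start, an end and a peak score. The deposited score looks like the scaled negative log10 p-value that MACS reports, which no header states, and its lowest value was 50 in each of the 4 lists. Per the submitters' processing notes, MACS 1.4.2, Bowtie 0.12.9, CASAVA 1.4, TopHat2 2.0.8, Cuffdiff 2.2.1 are named without a role, as is the build mm9. The sources used here give no read depth, control library or duplicate removal, so depth is unknown and no interval on it can be given.

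Starts were counted from 1. The score served to rank and filter peaks within a list. Merging, overlap and coverage were computed in Python 3.11.15 with pandas 2.3.3, and bins and covered lengths were tested with limma 3.58.1 (trend in the prior variance, Benjamini-Hochberg threshold 0.05) in R 4.3.3. On simulated data with 200 changed bins of 12613, changes of 0.05, 0.1 and 0.2 on the arcsine scale were recovered in 0%, 73% and 96.5%. Of 200 changed regions among 73960, 0%, 1.5% and 86.5% were recovered at changes of 0.25, 0.5 and 1 on the log2 scale. Changes of the smaller sizes were thus rarely or never called. In the 4 libraries, larger differences did not pass either. The bin chr15:96400001-96500000 differed by -0.132 on the arcsine scale (limma adjusted p = 0.295). The region chr5:75441188-75443283 differed by -1.95 on the log2 scale (limma adjusted p = 0.331). The simulation gave bins or regions of equal mean 1 common spread. In the fits of these libraries, limma found variation in spread beyond its trend (prior degrees of freedom 3.36 for bins and 2.72 for regions). The simulation was thus simpler than the data, and its recovered shares are no measure for these libraries. Totals were compared by exact permutation over samples. Alternatives covered the score minimum, list length, joining of peaks, transformation, filter, bin size, libraries in the fit, a replicate block and each library left out.

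Groups and replicate numbers came from the sample titles. Regions and bins named in the text were the 4 with the smallest p in each direction, the 4 widest and the 4 best-ranked lost and gained regions, and the 3 bins with the most of each. Members, lists and this rule were chosen with earlier results of these data known, and the 5mC comparisons were added after the data were seen. No annotation or genome of mm9 was used, so no gene or sequence is named from a position, and the planned gene lists were not examined.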

Additional observations from a re-analysis of the deposited data

Results flagged for a closer look

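Chromosome X was not part of the comparison. Its 5hmC peaks covered 333.3 kb in DKO replicate 1 and 346.1 kb in DKO replicate 2, above both WT libraries (295.4 and 283.4 kb). The corresponding numbers of peaks were 521 and 614 in DKO and 445 and 449 in WT. Chromosome X held 0.303% and 0.327% of the covered length in DKO and 0.265% and 0.260% in WT. The labels give no sex, and the difference was not tested.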

How the results depend on the processing

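The number of peaks differed from WT by -1.42% without DKO replicate 2 and by 3.83% with all libraries, and the values with each library left out ran from -1.42% to 9.07%. For median width these ran from -11.6% to 0.0709% and for covered length from -4.19% to -0.374%, and covered length turned to 1.78% with a minimum score of 100. Lost and gained regions numbered 3250 and 5604 with a minimum score of 100. With a library left out, where a single library decides presence in its group, they ran from 13117 to 21527 and from 16473 to 25412. No 100 kb bin passed in limma under any alternative but the limit to bins with at least 5% covered, where 113 passed. This last count was 0 with all 6 libraries, 34 with equal list lengths, 6 with a minimum score of 100 (0 lower and 6 higher, against 79 and 34), and 18 to 159 with a library left out. The bin chr1:162200001-162300000 turned to -0.0174 on the arcsine scale with a minimum score of 100. No region present in all 4 libraries passed under any alternative. The libraries share only a number: deviations of same-numbered libraries correlated at 0.0436 over bins, and with the replicate block 0 bins and 0 regions passed, beside 169 of the bins with at least 5% covered. Depth is unknown, so how far it limits the calls cannot be stated. The planned counts over gene lists were not run, since no annotation of mm9 was used here.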
